A study of Homo sapiens with 31 samples.

Results

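In MUTZ3 cells, 7377 chromatin sites carried both CTBP2 and EVI1 before induction of a 4xPLDLS competitor, and after induction had an EVI1 peak but no CTBP2 peak. They are 27.6% of the 26771 CTBP2 sites with an EVI1 peak in every inducible list, out of 37227 CTBP2 sites in all. The members were chosen by measured values: a merged CTBP2 interval had to be called in both untreated CTBP2 peak lists, to share no base with a peak of either dox CTBP2 list, and to overlap an EVI1 peak in both untreated and both dox EVI1 lists. Peak calls in those 8 lists are therefore a description of the choice and were not tested.

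MUTZ3 is a human acute myelomonocytic leukemia line with overexpressed EVI1, and the study asked whether EVI1 brings the corepressor CTBP2 to chromatin through a short PLDLS peptide. Its inducible arm was a bulk population of MUTZ3 cells carrying pCW-4xPLDLS, harvested at 72 h untreated or with doxycycline (dox), and profiled by ChIP-seq after DSG double crosslinking, with 2 libraries for each antibody and treatment and 1 input per treatment. The construct is present in the untreated cells too, and dox without the construct was not among the lists used here. Nothing in the labels says that the 2 libraries came from separate cultures, so differences between them may be technical.

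The other 5 lists used here took no part in the choice. They are 1 CTBP2 list (single crosslink) and 1 EVI1 list (DSG) of unmodified MUTZ3, 1 CTBP2 list of untreated MOLM1, and CTBP2 lists of 2 MUTZ3 libraries with constitutive p50MX-3xFLAG-3xNLS-4xPLASS-Zeo. MOLM1 is a line from chronic myeloid leukemia in blast crisis, here a clone carrying an uninduced shRNA against EVI1, and 4xPLASS is the control repeat with the CTBP-binding motif altered. The lists differ widely in length. The CTBP2 lists held 62232 and 56526 peaks untreated and 24588 and 23878 with dox, while the EVI1 lists held 51389 and 72214 untreated and 53806 and 47599 with dox. The lists outside the choice held 16836 (unmodified CTBP2), 21505 (unmodified EVI1), 64569 (MOLM1), 6688 and 31310 peaks (4xPLASS). Read depth was not in the files used here, so a missing peak means only that none was called.

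EVI1, encoded at the MECOM locus, is a zinc finger transcription factor of blood stem cells that is silent in most mature blood cells and is switched on in leukemia with rearrangements of that locus. CTBP1 and CTBP2 are corepressors without DNA binding of their own. They dock on PLDLS-type peptides of DNA-bound factors such as EVI1, ZEB and FOG proteins and bring histone deacetylases and demethylases with them. A surplus of PLDLS peptide competes for the docking cleft of CTBP and not for the DNA that EVI1 binds.

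The sequences below are 101 bp centred on the CTBP2 summit of untreated replicate 1, read from GRCh37 on the plus strand. The first group shows the strongest sites without an annotated UTR in the window, together with MMP14 and HECTD2, where EVI1 was also strong. Capitals mark any match on either strand to a set of 10 words. GGAAG is the core of ETS sites. AGATAA belongs to GATA-type sites, which the amino-terminal zinc fingers of EVI1 also bind, and the word GATGAG belongs to the site of its other zinc fingers. CACCTG is the E-box of ZEB factors. TGTGGT is bound by RUNX factors and the word TGACTCA by AP-1. KLF factors bind CACCC, SP factors bind the word GGGCGG, and CEBP factors bind TTGCAA, with TTGCGCAA as their full palindrome. No word contains another, but neighbouring matches can share bases. The windows, in order, are chr19:14607026-14607126, chr10:115033252-115033352, chr1:15468505-15468605, chr14:23308001-23308101 and chr10:93058230-93058330.
GIPC1: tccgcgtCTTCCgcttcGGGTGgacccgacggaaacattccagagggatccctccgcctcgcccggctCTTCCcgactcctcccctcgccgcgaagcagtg
HABP2: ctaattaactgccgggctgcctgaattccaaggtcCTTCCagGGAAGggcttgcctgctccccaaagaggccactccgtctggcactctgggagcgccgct
TMEM51: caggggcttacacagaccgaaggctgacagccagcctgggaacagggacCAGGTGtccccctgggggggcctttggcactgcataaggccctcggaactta
MMP14: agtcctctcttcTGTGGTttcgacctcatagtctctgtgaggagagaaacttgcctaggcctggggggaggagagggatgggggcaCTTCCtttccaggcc
HECTD2: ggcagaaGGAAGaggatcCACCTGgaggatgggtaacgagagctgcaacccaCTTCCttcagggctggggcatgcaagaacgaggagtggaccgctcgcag

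None of these 5 windows holds AGATAA, and GGAAG is in all of them except that of TMEM51, which has the E-box word at its centre. The second group shows members near blood and TGF-beta genes that are described further on; it was picked after their values were seen. The windows are chr3:128201796-128201896, chr7:27206869-27206969, chr16:88528475-88528575, chr9:130616939-130617039 and chr7:92533738-92533838.
GATA2: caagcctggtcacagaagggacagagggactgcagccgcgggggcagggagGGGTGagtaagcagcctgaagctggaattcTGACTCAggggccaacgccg
HOXA9: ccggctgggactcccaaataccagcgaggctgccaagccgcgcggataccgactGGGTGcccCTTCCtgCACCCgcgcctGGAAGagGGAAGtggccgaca
ZFPM1: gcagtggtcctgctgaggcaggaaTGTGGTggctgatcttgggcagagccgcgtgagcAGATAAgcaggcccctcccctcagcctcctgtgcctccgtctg
ENG: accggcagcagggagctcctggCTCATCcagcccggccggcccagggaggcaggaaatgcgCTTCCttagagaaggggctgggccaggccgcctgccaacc
CDK6: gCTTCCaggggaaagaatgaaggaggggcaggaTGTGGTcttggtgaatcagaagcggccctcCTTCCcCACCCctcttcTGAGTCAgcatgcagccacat

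Only the ZFPM1 window of this second group holds AGATAA, downstream of a RUNX word. The HOXA9 window carries GGAAG words beside CACCC, and the GATA2 and CDK6 windows each hold an AP-1 word.

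The members were weaker CTBP2 sites than those that kept CTBP2, and stronger than the other lost sites described here. Fold enrichment is the height of a peak over the input at its summit as MACS2 reports it. Median CTBP2 fold enrichment of the members was 7.29 in untreated replicate 1 and 5.24 in untreated replicate 2, with quartiles of 5.67 to 9.34 and 4.28 to 6.50. At the 13331 sites with EVI1 in all 4 lists and a CTBP2 peak in both dox lists, called retained sites here, the medians were 12.0 and 9.52. Over all 37227 CTBP2 sites they were 8.06 and 6.28, at sites that lost both proteins 6.25 and 5.03, and at lost sites without EVI1 in any list 5.12 and 4.64. Ranked by fold enrichment within each list, the median member stood 37.1% and 56.2% of the way down the 2 untreated CTBP2 lists, against 14.1% and 15.9% for the retained sites. Members were also narrower, with a median width of 676 bp against 989 bp, and 712 bp over all CTBP2 sites. At retained sites the dox CTBP2 peaks themselves were lower, with medians of 5.49 and 5.76.

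**Figure D1:**
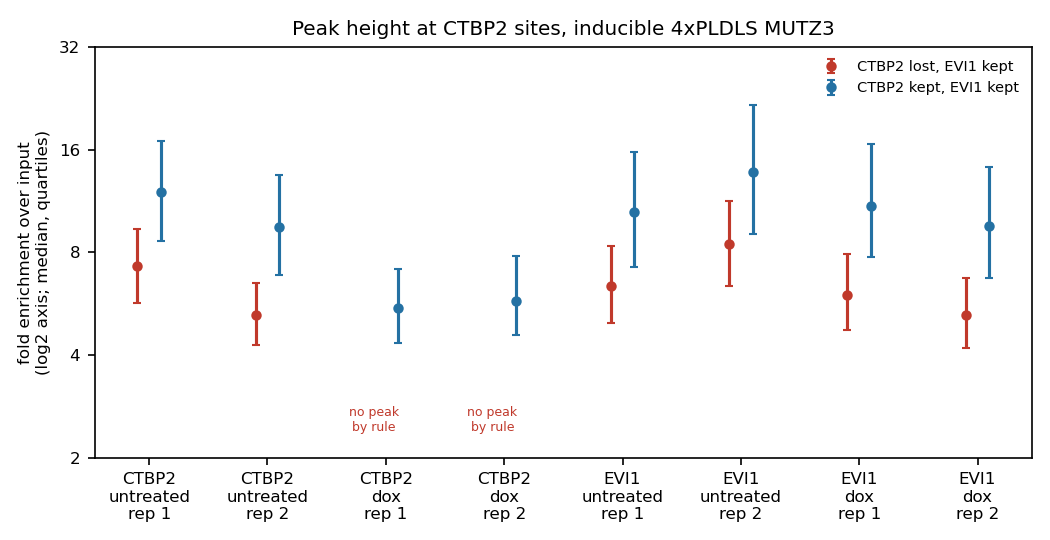
Fold enrichment over input (log2 axis) in the 8 inducible lists, as medians (points) with quartiles (bars), for the 7377 sites that lost CTBP2 and kept EVI1 (red) and the 13331 that kept both (blue). The red medians lie below the blue in each list, and the red sites have no dox CTBP2 peak because they were chosen that way.

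When the 26771 sites with EVI1 in all 4 lists were split into 5 equal groups by the lower of their 2 untreated CTBP2 fold enrichments, members made up 2.28% of the strongest group (122 of 5355) and 52.6% of the weakest (2815 of 5354). The 3 groups between held 13.1%, 27.7% and 42.2%. Over all CTBP2 sites, with or without EVI1, 41.0% had no dox CTBP2 peak. Only 38 members stood in the strongest 10% of both untreated lists, as did 3278 retained sites. List length moved with the number of members. With the CTBP2 lists cut to 23878 peaks each and the EVI1 lists to 47599, the strongest by p-value, 1686 sites met the rule, which is 11.1% of the 15180 sites that then qualified, and 1615 of the 7377 members (21.9%) overlapped one of them.

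EVI1 peaks were called at every member by the rule, and a minority were lower in both dox lists than in both untreated lists. Median EVI1 fold enrichment at members was 6.39 and 8.45 in the untreated replicates and 6.01 and 5.23 with dox. It was lower in both dox lists than in both untreated lists at 3303 members (44.8%), while the share over all sites with EVI1 in all 4 lists was 37.5%. By rank within the list, EVI1 was weaker in both dox lists at 3062 members (41.5%) with 35.1% over all such sites, and stronger in both at 637 (8.63%) with 14.9%. Retained sites were weaker by rank in 32.0% and stronger in 19.0%. These EVI1 lists also served the choice of members, so the counts are a description.

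Because members were weaker sites for EVI1 as well, the lists outside the choice were read within strata of strength. The CTBP2 summit lay a median of 65 bp and 76 bp from the EVI1 summit of the same-numbered untreated library at members, and 45 bp and 57 bp at retained sites. Summits of the 2 untreated CTBP2 libraries lay 64 bp apart at members and 44 bp apart at retained sites, so the wider spacing was also present between libraries of 1 antibody.

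MOLM1 is a different line that expresses EVI1, and its list held a CTBP2 peak at a share of members below that of CTBP2 sites as a whole. The MOLM1 list held a peak at 4146 members (56.2%, 95% Wilson interval 55.1 to 57.3) and at 10984 retained sites (82.4%, 81.7 to 83.0), and at 61.9% of all CTBP2 sites. Without CTBP2 untreated replicate 2 in the rule, the share of members was 49.8%. The difference between members and retained sites was -26.2 points (Newcombe 95% interval -27.5 to -24.9). These intervals cover counting error over sites only, since each of these groups is 1 library and sites are not replicates. Sites with CTBP2 in 1 of the 2 dox lists lay between, at 69.2%. The 1065 sites that lost CTBP2 and EVI1 together were in MOLM1 in 31.8%, which is 24.4 points (21.3 to 27.3) below the members. The 1535 lost CTBP2 sites without EVI1 in any list were there in 18.5%, which is 37.7 points (35.4 to 39.9) below.

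Members were also below retained sites and below all CTBP2 sites in the other lists outside the choice. The unmodified MUTZ3 CTBP2 list held 954 members (12.9%, 12.2 to 13.7), 60.2% of retained sites and 31.2% of all CTBP2 sites. The unmodified MUTZ3 EVI1 list held 2117 members (28.7%, 27.7 to 29.7), 69.7% of retained sites and 39.3% of all. The 4xPLASS lists held 212 members (2.87%) in replicate 1 and 2639 (35.8%) in replicate 2, against 30.4% and 82.9% of retained sites and 13.7% and 52.2% of all. Across the 5 lists, the share of members rose with the number of peaks in the list. Both 4xPLASS lists held a peak at 156 members.

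**Figure D2:**
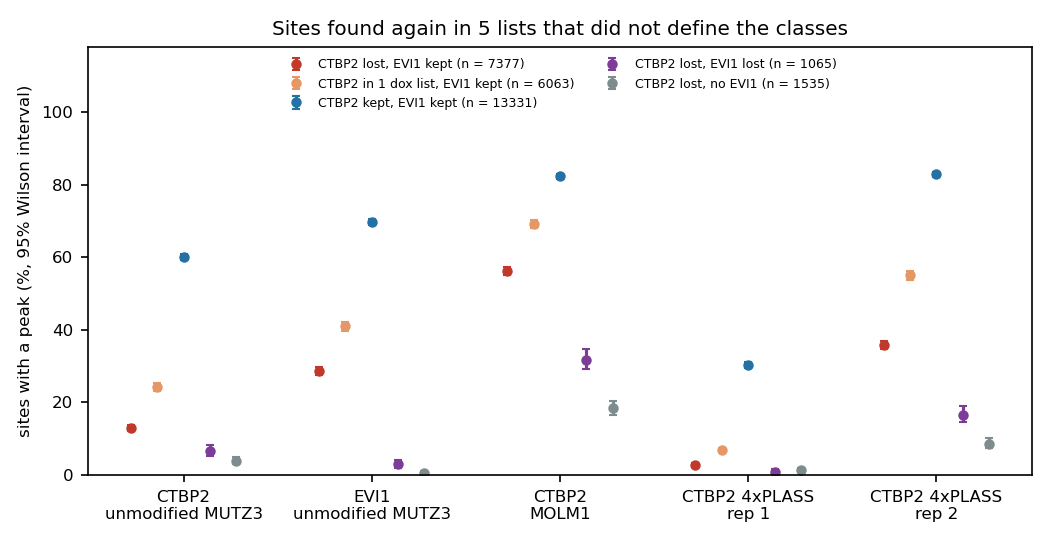
Share of sites (%) with a peak in each of the 5 lists that took no part in the choice, with 95% Wilson intervals, for 5 classes of CTBP2 sites. Members (red) sit below retained sites (blue) in each list, for example 56.2% and 82.4% in MOLM1, and above sites without EVI1 (grey) in each.

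Peaks of members in those lists were modest. Where a member had a MOLM1 peak its median fold enrichment was 6.66, with a median rank 49.9% down that list, and retained sites had 9.99 and 23.5%. Where it had an unmodified CTBP2 peak the median was 4.73, and retained sites had 5.84. Counting the 5 lists, 1908 members (25.9%) were in none of them and 48 were in all, while 5.67% of retained sites were in none and 3049 were in all. No CTBP2 peak in any of the 4 other CTBP2 lists was found at 2261 members (30.6%) and at 6.68% of retained sites.

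Within groups sorted by strength the gap in MOLM1 was narrower and remained, but the groups do not match strength fully. In the strongest, the lower CTBP2 value ran from 10.3 to 137, and no member was above 18.4. Interval width was not matched either, and a wider interval meets a peak more easily at 1 bp. In the strongest of those 5 groups, 66.4% of members and 86.0% of retained sites had a MOLM1 peak (difference -19.6 points, -28.4 to -11.8), and in the weakest 53.3% and 74.4% did (-21.1 points, -24.3 to -17.8). In 5 equal groups by EVI1 fold enrichment the differences ran from -20.6 to -26.1 points. On each of the 23 chromosomes with at least 20 sites of both classes, members were below retained sites in MOLM1. Within the strongest group by CTBP2, unmodified EVI1 was found at 50.0% of members and 82.5% of retained sites.

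**Figure D3:**
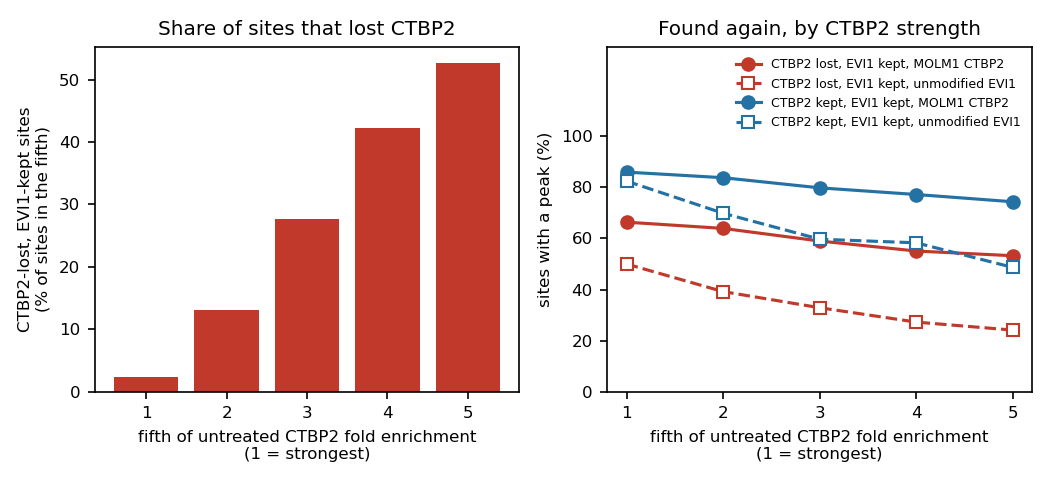
Left, members as a percentage of sites with EVI1 in all 4 lists, in 5 equal groups by untreated CTBP2 fold enrichment (1 = strongest). Right, the percentage of members (red) and retained sites (blue) with a MOLM1 CTBP2 peak (circles) or an unmodified EVI1 peak (squares); for the same list, red lies below blue in each group.

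Promoter position separated members little from retained sites, and more from the other lost sites. Of the 7266 members on chromosomes 1 to 22, X and Y, 2010 (27.7%, 26.6 to 28.7) had their summit within 1 kb of the start of a protein-coding gene, 1493 lay at 1 to 10 kb and 3763 lay farther away. Retained sites were within 1 kb in 29.8% (difference -2.14 points, -3.43 to -0.848). That direction was not stable: with a -log10 q of at least 5 in every list the shares were 34.2% and 26.8%, and with lists of equal size 32.3% and 31.4%. Sites with CTBP2 in 1 dox list and EVI1 in all 4 lists were within 1 kb in 34.9%. Lost CTBP2 sites without EVI1 in any list were within 1 kb in 4.05%, and sites that lost both proteins in 7.66%. The remaining 111 members lay on other sequences, 94 of them on alternative haplotypes of chromosome 6, where reads from near-identical copies cannot be assigned.

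Introns held the summit of 2939 members (40.4%), intergenic sequence 3017 (41.5%), UTRs 899 (12.4%) and coding exons 411 (5.66%). These features are of protein-coding genes only, so intergenic here means outside a protein-coding gene and can include noncoding genes. Intron shares of members and retained sites differed by 0.957 points (-0.443 to 2.36). Promoter members were wider than the rest, with a median of 998 bp against 561 bp beyond 10 kb. They were also found in MOLM1 more often, in 65.7% (63.6 to 67.8) against 53.1% (51.5 to 54.7) beyond 10 kb. Neither was particular to members: retained sites had median widths of 1293 bp and 820 bp, and MOLM1 peaks in 87.8% and 79.9%. The unmodified EVI1 list held 542 of the 2010 promoter members and 1111 of the 3763 beyond 10 kb (29.5%), so the promoter members were not ahead there.

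Sites that shared a base with a dox CTBP2 peak were left out by the rule, so scarcity of such peaks at short range is partly built in. Shares near a dox peak were similar at members and at the other lost sites. A dox CTBP2 peak lay within 500 bp of 349 members (4.73%) and within 1 kb of 697 (9.45%). Within 10 kb the share was 48.1%, and a retained site lay that close to 31.1% of members. At lost sites without EVI1 in any list the shares near a dox peak were 4.50% within 500 bp and 50.5% within 10 kb. At sites that lost both proteins they were 4.13% and 49.7%. At the edge of the rule, the member nearest to a dox CTBP2 peak lay at the start of RCOR3, a partner of the LSD1 demethylase, at chr1:211431553-211432045 with a gap of 1 bp. Its untreated CTBP2 fold enrichment was 5.11 and 4.33. The excluded site with the smallest overlap, 4 bp, lay near C17orf99 at chr17:76135950-76136510 with values of 6.80 and 5.87. Only 8 sites with EVI1 in all 4 lists shared 50 bp or less with a dox CTBP2 peak.

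The sequence at the members was rich in the ETS core. GGAAG was within 100 bp of the CTBP2 summit at 5161 of the 7253 members with a complete reference window (71.2%, 70.1 to 72.2), at 47.5% of windows of the same 201 bp placed 1 kb away, at 73.4% of all CTBP2 sites and at 80.2% of retained sites. The difference from retained sites was -9.05 points (-10.3 to -7.81). In the 5 groups of CTBP2 strength it was -1.57, -2.97, -1.80, -6.76 and -3.74 points from strongest to weakest, and the interval included 0 in the 3 strongest. Counted in 20 bp steps, the word reached 13.8% of members and 17.7% of retained sites near the summit, from 6.93% and 7.59% at the far upstream end, and stayed between 6.74% and 10.9% at lost sites without EVI1.

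**Figure D4:**
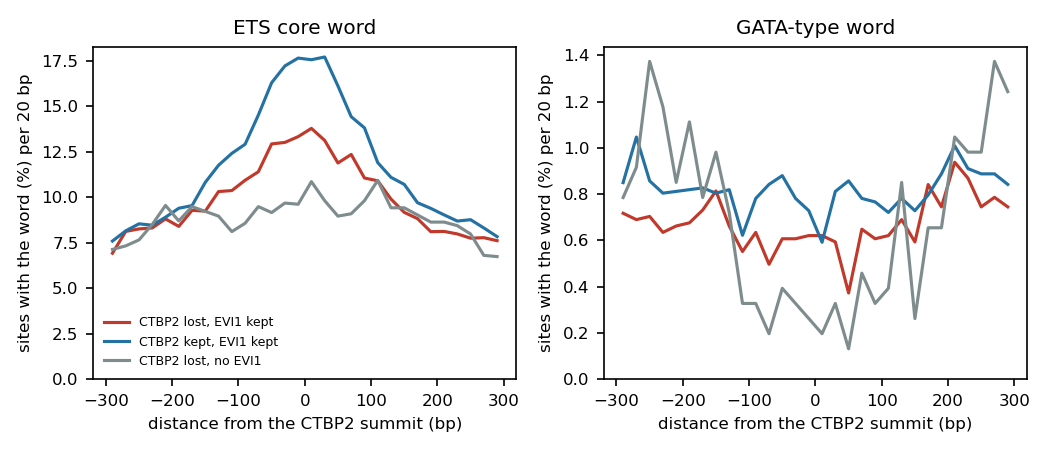
Percentage of sites with the ETS core word (left) or the GATA-type word (right) in each 20 bp step of distance from the CTBP2 summit, for members (red), retained sites (blue) and lost CTBP2 sites without EVI1 (grey). The ETS word reaches 13.8% in red and 17.7% in blue near the summit and at most 10.9% in grey, and the GATA-type word has no rise at the summit in any class.

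AGATAA was rare at the members. It was in 5.38% of member windows (4.88 to 5.92), 8.23% of windows 1 kb away and 7.23% of retained windows. Within the 5 groups of strength, the difference from retained sites had an interval that included 0 in the 3 strongest. The 390 members with the word had a MOLM1 peak in 57.4% and those without it in 57.1%. CACCTG was in 23.0% of members, 21.2% of retained sites and 47.1% of the lost CTBP2 sites without EVI1, so the members differed from the EVI1-free lost sites by -24.1 points (-26.8 to -21.4). TGTGGT was in 16.4% of members and 19.5% of retained sites, but within the 5 groups of strength the differences were -1.72, 1.71, 2.05, 0.100 and -2.99 points, with intervals that included 0 in all but the weakest. GC content had a median of 59.7% at members and 58.7% at retained sites, and 53.2% at sites without EVI1.

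The other words differed little between members and retained sites. GATGAG was in 12.4% and 12.1%, TGACTCA in 4.88% and 5.11%, and TTGCAA in 2.74% and 2.91%. CACCC was in 55.3% and 53.6%, and GGGCGG in 31.6% and 30.2%. The full CEBP palindrome TTGCGCAA was in 8 members. A match is a description of the letters in the window.

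The 10 strongest members by the lower of the 2 untreated CTBP2 values lay mostly away from gene starts, and 1 of the 10 was within 1 kb of a gene-level start. That 1 was at GIPC1, a PDZ adaptor of receptor trafficking, 115 bp upstream of its start (chr19:14606424-14607582). CTBP2 fold enrichment there was 27.8 and 18.4 untreated, ranks 705 and 1487. EVI1 was 11.0 and 14.7 untreated and 4.57 and 4.41 with dox, so both dox values were below both untreated values, as at 44.8% of all members. It had a peak in all the other lists except 4xPLASS replicate 1, at 5.02 in MOLM1.

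RUNX1, a master regulator of blood stem cells, held a member 41 bp upstream of an internal transcript start (chr21:36260301-36262951). The gene-level rule assigned this site to CLIC6, 219735 bp away. CTBP2 was 21.5 and 15.1 untreated, and the nearest dox CTBP2 peak lay 4897 bp away. EVI1 was 12.1 and 21.2 untreated and 8.49 and 9.80 with dox. The site was called in all 5 lists outside the choice, at 4.20 and 4.85 for CTBP2 and EVI1 in unmodified MUTZ3, 7.38 in MOLM1, and 3.76 and 6.68 in 4xPLASS.

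MMP14, a membrane-anchored matrix metalloproteinase, held a member in an intron, 2282 bp from its start (chr14:23307733-23308450). CTBP2 was 17.4 and 14.9, and EVI1 was 27.4 and 29.9 untreated and 10.2 and 10.3 with dox. It was absent from the unmodified CTBP2 list and present in that of EVI1 at 14.6. A member 94869 bp upstream of GATA5, a cardiac and endodermal GATA factor, had CTBP2 values of 14.8 and 16.3, and EVI1 of 14.5 and 33.6 untreated and 7.73 and 7.26 with dox. It had no MOLM1 peak. Both dox EVI1 values were below both untreated values at either site. That was so at 44.8% of members and 37.5% of all sites with EVI1 in all 4 lists.

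A pair of strong members lay in introns of genes other than the nearest start. The first was in ATP2B2, a calcium pump, assigned to SEC13 (chr3:10501685-10502332), with CTBP2 at 17.5 and 15.9, and EVI1 at 9.81 and 8.02 untreated and 2.90 and 2.95 with dox. It had the strongest unmodified CTBP2 peak of the 10, at 10.7, and no unmodified EVI1 peak. Its dox EVI1 peaks stood near the bottom of their lists, at ranks 52609 of 53806 and 46395 of 47599. The other was in HIVEP3, a zinc finger factor, assigned to the gene ENSG00000284895 (chr1:42237044-42237575). Its CTBP2 values were 15.5 and 16.4, and EVI1 was 7.52 and 15.4 untreated and 8.37 and 9.21 with dox, where the groups overlapped.

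Intergenic members near HABP2 and TMEM51 completed the better-mapped part of the 10. Near HABP2, a plasma protease, the site (chr10:115032874-115033826) lay 277294 bp upstream of the gene start, and a transcript start of TCF7L2, a Wnt pathway factor, was closer, at 121129 bp. CTBP2 was 19.7 and 17.5, and EVI1 was 8.04 and 18.3 untreated and 5.40 and 5.71 with dox. Upstream of TMEM51, at chr1:15468241-15468790, CTBP2 was 17.1 and 16.2, and EVI1 was 13.5 and 17.9 untreated and 9.48 and 7.60 with dox. Its fold enrichment in MOLM1 was 21.7, the highest MOLM1 value of the 10.

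The last 2 of the 10 lay in sequence where mapping is uncertain. The member 109017 bp from SPATA31A1 in a duplicated family on chromosome 9, had CTBP2 at 14.4 and 16.0 and was in none of the 5 other lists. The member 580190 bp from TMEM121 in the direction of the immunoglobulin heavy chain genes, had CTBP2 at 19.2 and 14.2, and EVI1 at 13.5 and 21.6 untreated and 5.84 and 4.46 with dox. With lists of equal size, 9 of the 10 remained members, all but the ATP2B2 site.

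Besides the RUNX1 site, 4 named members were called in all 5 other lists. The one near HECTD2, a ubiquitin ligase, had CTBP2 at 19.2 and 12.4, and EVI1 at 20.8 and 33.4 untreated and 6.85 and 7.48 with dox. At the start of NDFIP2, an adaptor of NEDD4 ligases, CTBP2 was 14.7 and 10.5, and EVI1 was 12.9 and 18.7 untreated and 9.87 and 8.59 with dox. In ARAP1, a regulator of small GTPases, CTBP2 was 14.4 and 10.5, and EVI1 was 24.0 and 42.0 untreated and 17.9 and 17.2 with dox. In RAB3IL1, an exchange factor for RAB proteins, CTBP2 was 12.7 and 9.93, and EVI1 was 8.60 and 11.1 untreated and 7.35 and 5.73 with dox. EVI1 was lower in both dox lists than in both untreated lists at 13 of the 14 named members. The share was 44.8% over all members and 37.5% over all sites with EVI1 in all 4 lists. The named members were picked for high untreated CTBP2 values and the EVI1 lists served the choice, so this count is a description. All 4 sites of this paragraph stayed members with lists of equal size.

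**Figure D5:**
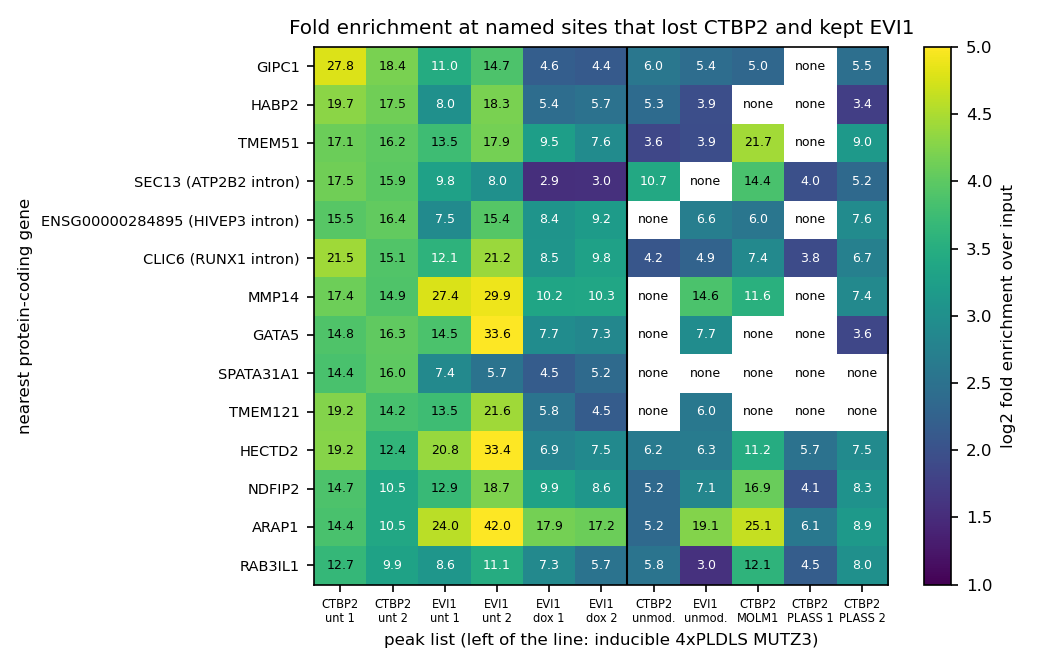
Fold enrichment at the 14 named members (rows, by nearest protein-coding gene, with the gene whose intron holds the summit in brackets) in 6 inducible lists and the 5 lists outside the choice, coloured on a log2 scale; "none" means no peak. EVI1 is lower in both dox columns than in both untreated columns in 13 of the 14 rows, which were picked by their untreated CTBP2 values, and at 44.8% of all members.

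Assigned to the nearest protein-coding start, the members reached 5194 of 20136 genes, or 25.8%. Of these genes, 3873 had 1 member, 896 had 2 and 425 had 3 or more. A retained site was also assigned to 2632 of them, and 2035 had members and no other site with EVI1 in all 4 lists. Genes in gene-poor surroundings collect more sites by this assignment.

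The genes with most members were led by TMEM121, with 18 members over the immunoglobulin heavy chain region and 24 retained sites. BCOR, a corepressor of BCL6 mutated in leukemia, had 12 members and 12 retained sites. RUNX3 had 11 and 10, and ZFP36L1, an mRNA decay factor, had 10 and 9. ID2, an inhibitor of E proteins, had 8 and 18, and SMAD7, the inhibitory SMAD, had 8 and 14. MYH9, a non-muscle myosin, had 8 and 3, MKI67, a proliferation marker, had 8 and 4, and ENSG00000284895 had 8 and 12. Members outnumbered retained sites at 4 of these genes, RUNX3, ZFP36L1, MYH9 and MKI67. The genes were picked for their number of members, which favours members in that comparison, so it is a description only.

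Gene groups were taken from 8 lists written from textbook knowledge. Over all genes, 25.8% had a member, but a gene needs a site to have one. There were 12325 genes with a site with EVI1 in all 4 lists, and 5194 of them had a member. Genes with many sites have more chances of a member, so the counts of genes per list are a description. Members made up 27.4% of the sites with EVI1 in all 4 lists. Of the 77 listed genes with a member, the strongest member of 26 was still a member with lists of equal size and that of 51 was not. Of 22 stem cell transcription factor genes, 13 had at least 1 member, and members were 25 of 111 sites (22.5%, 15.7 to 31.1). RUNX1 is in this list but counts as a gene without a member, because its site described above was assigned to CLIC6. HOXA9, a self-renewal factor of leukemia, had 3 members, 1 site with CTBP2 in 1 dox list and no retained site. The strongest (chr7:27206689-27207097) lay 7880 bp from the gene-level start, in an intron of the long gene-level HOXA9 span and of a second gene, ENSG00000257184. It had CTBP2 at 12.7 and 11.0, and EVI1 at 6.03 and 8.97 untreated and 7.08 and 5.69 with dox. It also had peaks in unmodified CTBP2, MOLM1 and 4xPLASS replicate 2, and it remained with lists of equal size.

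MYCN had the most members of that list, 5 members with 5 retained sites. GATA2, the stem cell GATA factor whose enhancer is moved next to MECOM in some of these leukemias, had 1 member in its own intron (chr3:128201627-128202746), at CTBP2 8.48 and 6.99. EVI1 there was 6.10 and 6.86 untreated and 4.08 and 4.54 with dox. Both dox values were below both untreated values, as at 44.8% of members and 37.5% of all sites with EVI1 in all 4 lists. MECOM itself had 2 members and 1 retained site. The stronger lay in an intron, with CTBP2 at 9.09 and 6.50 and EVI1 at 13.0 and 19.8 untreated and 10.0 and 7.97 with dox. With lists of equal size the GATA2 site was still a member, and the MECOM site and the strongest of MYCN were not.

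Of 18 myeloid differentiation factor genes, 11 had a member, and members were 31 of 115 sites (interval 19.7 to 35.7%). CEBPE, a factor of late granulocyte maturation, held the strongest, 781 bp upstream of its start (chr14:23589980-23590657). CTBP2 was 15.0 and 7.79, and EVI1 was 8.82 and 10.5 untreated and 5.54 and 3.21 with dox. CEBPA, the central granulocyte factor, had a member with its summit 24 bp upstream of the start, at CTBP2 9.55 and 5.03, beside 2 retained sites. EVI1 there was 9.28 and 13.7 untreated and 5.89 and 8.88 with dox. ID2 had the most members of this list, the 8 given above. EGR2 had 1 member and no other site. The CEBPE site and the strongest of ID2 were still members with lists of equal size, and the sites at CEBPA and EGR2 were not.

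Among genes of mature neutrophils and monocytes, members touched 4 of 22 genes and were 4 of 32 sites (12.5%, 4.97 to 28.1), an interval that includes the share over all genes. ITGAM, the integrin CD11b, held the strongest, at CTBP2 5.72 and 7.74. The others were assigned to CAMP (14 bp upstream of the start), CD68 (260 bp from the start) and CD14 (intergenic, 24378 bp from the start). CAMP and CD68 had no other site with EVI1 in all 4 lists. None of these 4 sites was a member with lists of equal size.

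Erythroid and megakaryocyte genes had a member in 8 of 20, with 11 of 31 sites (35.5%, 21.1 to 53.1), an interval that includes the 27.4% of all genes. ZFPM1, which encodes FOG1, the CTBP-binding partner of GATA1, held the strongest in its intron at CTBP2 9.86 and 8.81, and EVI1 at 4.65 and 9.33 untreated and 3.43 and 3.13 with dox. TFRC, the transferrin receptor, had the most, with 3. GATA1 had 1 member in its own intron and no other site, with CTBP2 at 7.45 and 6.50 and EVI1 at 6.55 and 9.63 untreated and 5.95 and 5.58 with dox. EPOR, SLC4A1 and ITGB3 each had 1 member and no other site, and those of SLC4A1 and ITGB3 were intergenic, 21331 and 13514 bp from the start. With lists of equal size the ZFPM1 site was still a member, and those of GATA1, EPOR, SLC4A1, ITGB3 and TFRC were not.

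Genes of the CTBP complex had a member in 9 of 22, with 15 of 87 sites (17.2%, 10.7 to 26.5). The share over all genes was 27.4%, and the interval covers counting error over sites only. Sites of the same gene were counted separately and CTBP2 strength was not matched between lists, so a difference from all genes was not tested. The strongest was the ZFPM1 site already given, and ZNF217, a zinc finger partner of CTBP, had the most, with 3 members and 6 retained sites. EVI1 at its strongest member was 25.7 and 42.4 untreated and 8.40 and 17.6 with dox. CTBP1 had 1 member 1047 bp from its start, at CTBP2 4.77 and 4.36, and no other site. CTBP2 had 1, 67536 bp upstream, at 6.33 and 4.28. WIZ, which links CTBP to the G9a methyltransferase, had 1 member in its UTR, 108 bp from its start, and no other site. The sites described at ZNF217, CTBP1, CTBP2 and WIZ were not members with lists of equal size.

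TGF-beta genes, a pathway that EVI1 is known to dampen through SMAD3, had a member in 13 of 20, with 34 of 106 sites (32.1%, 24.0 to 41.5). TGIF1, a SMAD corepressor that itself binds CTBP, held the strongest, at CTBP2 8.70 and 9.16, and EVI1 at 9.65 and 9.74 untreated and 4.88 and 3.91 with dox. SMAD7 had the most. SMAD5 had a member 81 bp upstream of its start at CTBP2 13.8 and 5.66, and SMAD1 had 1 within 532 bp of its start at 9.62 and 5.45. Neither had another site with EVI1 in all 4 lists, and neither was a member with lists of equal size, while those of TGIF1, SMAD7 and ENG were. ENG, a coreceptor, had its strongest member 52 bp upstream of the start, at CTBP2 11.3 and 6.11, with EVI1 at 5.79 and 9.98 untreated and 4.94 and 4.78 with dox.

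Blood cell receptor genes had a member in 10 of 22, with 23 of 119 sites (19.3%, 13.2 to 27.3). The share over all genes was 27.4%, and a difference from it was not tested here either. IL3RA held the strongest, at 17.7 and 10.5, but lies in a region present on both sex chromosomes, so its placement is uncertain. CSF3R, the G-CSF receptor, had the most members, with 4 beside 4 retained sites. Its strongest lay 9380 bp upstream (chr1:36958072-36958664), with CTBP2 at 11.2 and 8.12 and EVI1 at 8.10 and 12.6 untreated and 8.47 and 6.69 with dox.

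Cell cycle and survival genes had a member in 11 of 22, with 27 of 103 sites (26.2%, 18.7 to 35.5). The strongest was assigned to MYC, the growth-promoting transcription factor. It lay outside protein-coding genes, 140331 bp from the MYC start, at CTBP2 8.45 and 11.9. MYC also had the most, with 7 members and 8 retained sites. BCL2L11, which encodes the death-promoting protein BIM, had 6 members and 7 retained sites, the strongest in its intron at CTBP2 6.66 and 12.4, which was not a member with lists of equal size. CDK6, a G1 kinase, had 1 member 67901 bp upstream at CTBP2 8.60 and 7.54. EVI1 there was 9.33 and 8.66 untreated and 3.21 and 4.49 with dox. Both dox values were below both untreated values, as at 44.8% of members and 37.5% of all sites with EVI1 in all 4 lists.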

How the data were processed

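Of the 31 samples of the series, 13 peak lists were used: 8 in choosing the sites and 5 outside the choice, grouped by their GEO labels. The authors aligned reads to hg19 with Bowtie 1.1.1 and called peaks in each library against its input with MACS2, and the processing notes list MACS2 2.1.2. The deposited lists give per peak a score, a fold enrichment over input, and -log10 p and q values. They hold no counts, so depth is unknown and no count-based differential binding could be run. Signal tracks and the other libraries were not used here.

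Untreated CTBP2 peaks of both libraries were merged wherever they shared 1 bp, and other lists were matched at 1 bp. Where a list had several peaks in an interval, the strongest was used. Starts and features came from GENCODE 44 on GRCh37, with features taken from protein-coding genes only. The sequences came from the GRCh37 genome. Windows with unread bases were left out. Shares have Wilson intervals and differences Newcombe intervals at 95%, which cover counting error over sites only. Scripts ran in Python 3.11.15 with numpy 2.4.6, pandas 2.3.3 and pysam 0.24.0, and the site rule was tested on simulated lists.

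The members, gene lists and words were chosen with earlier results of these data known. Named members were the 10 with the highest lower value of the 2 untreated CTBP2 fold enrichments, those called in all 5 lists among the next strongest, the 10 genes with most members (1 of them is not reported here), the genes of each list with the strongest or most members, and the pair at the edge of the rule. Other list genes, including GATA2, MECOM, CEBPA, GATA1, SMAD5, SMAD1, ENG, CTBP1, WIZ and CDK6, were picked after their values were seen. Each alternative changed 1 choice.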

Additional observations from a re-analysis of the deposited data

How the results depend on the processing

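The 7377 sites became 1686 with lists of equal size, and leaving out 1 library gave 7515 to 11216, the most without CTBP2 Dox replicate 1. The share in MOLM1, 56.2%, was 60.0% with a -log10 q of at least 5, 62.6% with a fold enrichment of at least 5, 68.4% with lists of equal size, 58.3% with summits within 200 bp, and 49.8 to 60.8% without 1 library. It was below the share of retained sites in 16 of 16 alternatives. The share within 1 kb of a start, 27.7%, was 34.2%, 33.1%, 32.3% and 22.6% under those settings in the same order, 34.5% with genes of any type, 36.5% with transcript starts (chosen after seeing the data), and 25.5 to 32.6% without 1 library. It was below retained sites in 13 of 18 alternatives. The ETS word, at 71.2%, was at 48.3% in windows of 50 bp each side. Pairing libraries by replicate number (replicate block) left 7377 sites, 56.2% and 27.7%, because the rule already required every library. Depth was unknown, so the part of depth in the shorter dox CTBP2 lists was not tested.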
